A study of Mus musculus with 12 samples.

Results

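The 10 genes described here sense nucleic acids in the cytosol or are induced by interferon: Ddx58, Ifih1, Tmem173, Tbk1, Ifit2, Ifi35, Ifi204, Ifitm1, Mx1 and Bst2. They were taken by name from a table of 545 endogenous immune genes, and all 10 were found in it. Microglia, which are the macrophages that live in the brain, were sorted from the hippocampus of male Balbc mice on postnatal day 28. The 6 BDS samples came from pups exposed to brief daily separation, a removal from the mother that lasted 15 min each day between postnatal days 1 and 21, and the 6 control samples came from control pups. The design text states that each of the 12 pups came from its own litter, and no transgene or other agent is named. Barcodes of a NanoString nCounter mouse immune panel were counted from 2 ng of RNA per sample after 5 rounds of PCR. A sample is a pool of sorted cells, so less RNA per cell and fewer cells of a type cannot be told apart in any value below.

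Cells recognise foreign or misplaced nucleic acid in the cytosol through a few receptors. Ddx58 (RIG-I) and Ifih1 (MDA5) are helicases that bind double-stranded RNA. Tmem173 (STING) is an adaptor of the endoplasmic reticulum that answers the cyclic dinucleotide made when DNA is present in the cytosol. Both routes reach the kinase Tbk1, which activates interferon regulatory factors and so the type I interferon genes. Secreted interferon then acts through its receptor and STAT factors on a large set of antiviral genes, to which Ifit2, Ifi35, Ifi204, Ifitm1, Mx1 and Bst2 belong, and Ddx58 and Ifih1 are themselves induced in this way. In the brain, microglia are among the cells that make and answer type I interferon.

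The libraries were uneven in depth. Total endogenous counts were 577135 to 1103445 in BDS samples and 827591 to 1341132 in control samples. A normalized count is the raw count divided by a factor for the sample, taken from 6 housekeeping genes. This factor was 0.61, 0.65 and 0.85 in BDS 21, BDS 25 and BDS 55, and 1.02 to 1.28 in the other 3 BDS samples, against 0.87 to 1.47 in controls. These 3 BDS samples had the lowest factors of the 12, BDS 55 close to control 5 at 0.87, and results are given with and without them. The number of the 545 genes above the limit of detection in a sample was 298 to 358 in BDS and 340 to 393 in controls (324 ± 20 in BDS, 361 ± 18 in controls, SD, n = 6 each; two-sided exact permutation p = 0.0087, 0.061 adjusted over 7 measures of library quality). Its part in the differences of the members was not tested. This limit, the mean plus 2 SD of the negative-control probes, overlapped between the groups in raw counts (18.2 to 21.8 in BDS, 15.3 to 21.3 in controls). After scaling it was 16.01 to 30.8 in BDS and 12.7 to 19.2 in controls. All 8 microglial markers found in the table (Csf1r, Cx3cr1 and Itgam among them) lay above the limit in all 12 samples. Of the markers of other cells, Cd3d and Cd3e of T cells, Pax5 of B cells, Cxcr2 and Camp of neutrophils, and Cd163 of border macrophages were above the limit in 0 samples. Cd79b of B cells, Klrd1 of NK cells, Ccr2 of monocytes and Pecam1 and Cdh5 of endothelial cells were above it in all 12, and Cd79a, Cd4, Cd8b1 and S100a8 in 6 each. The summed endothelial markers ran from 929 to 1301 normalized counts in BDS and from 958 to 1352 in controls. Summed T cell markers were at 49.0 to 87.1 in BDS and 47.6 to 71.6 in controls, B cell markers at 159 to 350 in BDS and 172 to 277 in controls, and NK cell markers at 106 to 163 in BDS and 103 to 160 in controls. Neutrophil markers were at 45.7 to 72.5 in BDS and 40.0 to 153 in controls, and monocyte and border macrophage markers at 245 to 444 in BDS and 285 to 493 in controls. The neuron and glia list, of which App makes up most, was at 4108 to 6508 in BDS and 5803 to 7155 in controls. The ranges of these sums overlapped. The single markers App, Cdh5 and Ccr2 were lower in BDS at an unadjusted p under 0.05. Their log2 fold changes were -0.25, -0.32 and -0.36 (edgeR unadjusted p = 0.038, 0.040 and 0.049, each with an adjusted p of 0.38). Other tested markers of the same lists did not move alike. Beside App, Icam5 was at 0.26 and Mbp at -0.09 (edgeR unadjusted p = 0.22 and 0.67). Beside Cdh5, Icam2 was at 0.04 and Pecam1 at -0.15 (edgeR unadjusted p = 0.85 and 0.21). Ccr2 was the only tested marker of its list. The part of other cells in the differences of the members was not tested.

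Of the 10 genes, 8 passed the filter on low counts, which asked for at least 5 of the 12 samples above the limit, and Ifi204 and Ifitm1 did not. Ddx58, Ifih1, Tbk1, Ifit2, Ifi35, Mx1 and Bst2 lay above the limit in all 12 samples, and Tmem173 did in 5. None of the 8 differed between BDS and control past an adjusted p of 0.05 (edgeR quasi-likelihood test, smallest adjusted p 0.36 for Ifit2), in a panel of 357 tested genes where 0% did. Limma also called 0 of the 8 and 0 genes of the panel. DESeq2 with the same scaling called 6 genes of the panel. It gave an adjusted p for 4 of the 8 members (Ddx58, Ifih1, Tbk1 and Ifi35) and called 0 of these 4. At an unadjusted p under 0.05 edgeR, DESeq2 and limma each listed 2 of the 8, Ddx58 and Ifit2, both lower in BDS. In edgeR that is 25% of the tested members, beside 12.3% of the panel (11.5% lower and 0.84% higher in BDS; DESeq2 13%, limma 14.8%), and with 8 genes each gene carries a large part of such a share. The count was 0 without BDS 21, 25 or 55, or without control 13, 27 or 44, each left out alone. The share of the panel with such a p was then 8.68%, 7.28% and 7.28% without these BDS samples and 10.9%, 8.68% and 9.8% without these controls. The count of members was 3 without BDS 7, beside 26.9% of the panel, and 3 without control 5, beside 11.8%, when Ifih1 joined. Without control 9 the count was 2, Ifit2 and Ifih1 (unadjusted p = 0.019), with Ddx58 at an unadjusted p of 0.051, beside 15.7% of the panel. It stayed at 2, Ddx58 and Ifit2, without BDS 35, BDS 43 or control 54, beside 15.1%, 15.7% and 9.52% of the panel. Log2 fold changes were below 0 for 5 of the 8 genes, beside 66.1% of the panel. Their median was -0.13, beside -0.10 for all tested genes. In no member did the BDS and control samples separate without overlap; 1.12% of the panel had all BDS samples below every control.

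**Figure D1:**
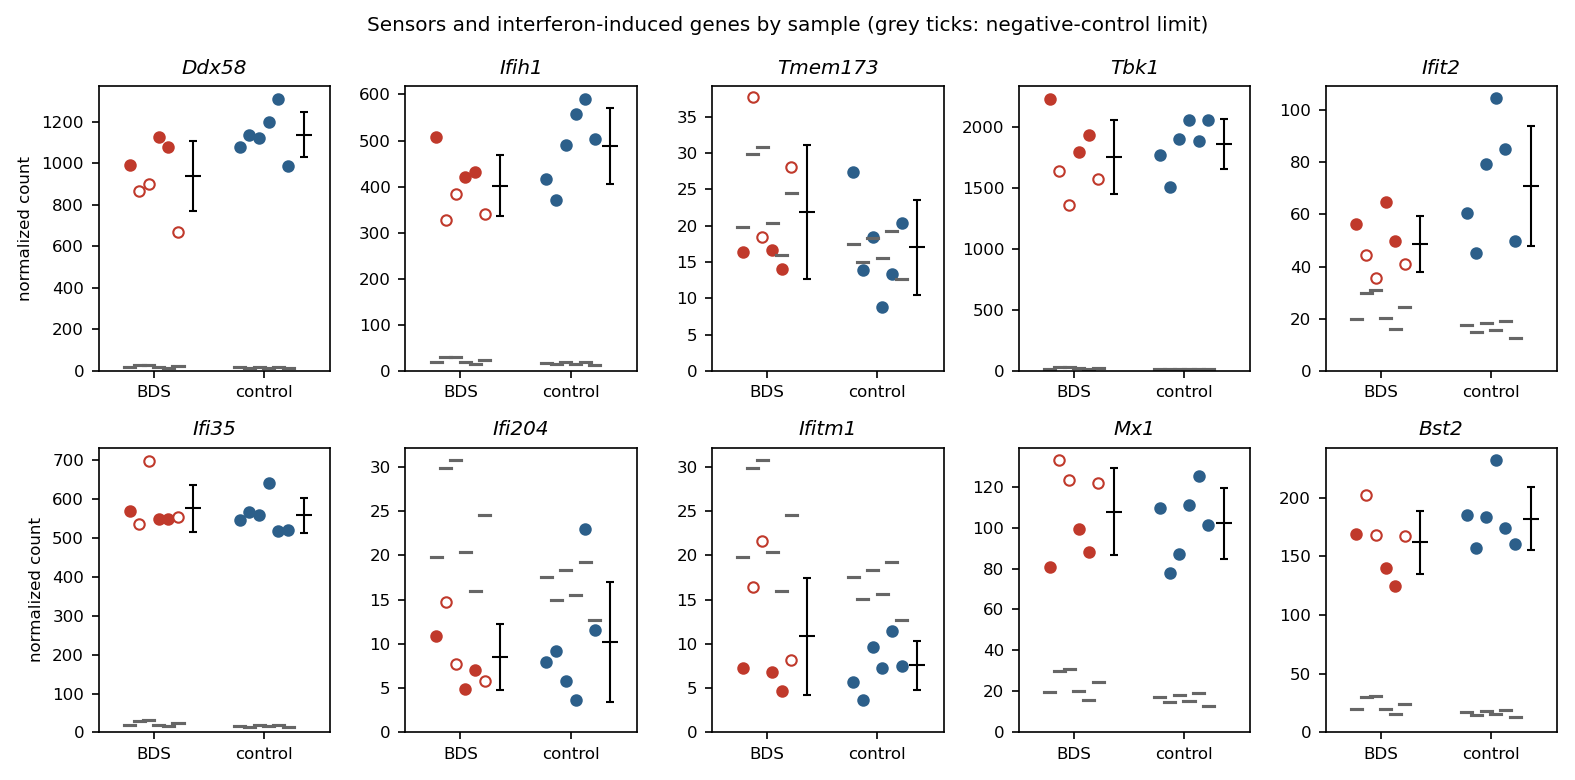
Normalized counts of the 10 genes in each sample, BDS left and control right; open circles are BDS 21, BDS 25 and BDS 55, black bars are mean ± SD over 6 samples, and grey ticks are the scaled negative-control limit of each sample. Ddx58 and Ifit2 reach lower in BDS, down to 668 and 35.5 normalized counts, and Ifi204 and Ifitm1 lie near or under the ticks.

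Upstream sequences of the members were read to show what precedes the genes whose counts are described. The RefSeq promoter table (GRCm38.p6) matched 7 of the 10 genes by symbol, with 8 start sites because Ifit2 has 2. Ifi204, Mx1 and Tmem173 were not matched, so their upstream sequences were not searched. The 250 bases before each start were searched on both strands for the core of the interferon-stimulated response element, in which GAAA is followed by any 2 bases and GAAA again, and for the gamma-activated sequence, TTCNNNGAA. The first is a DNA element bound by interferon regulatory factors and the STAT complex of type I interferon, and the second is bound by STAT dimers. The first motif was in 2.98% and the second in 7.02% of all 32851 windows of this length in the table. Bst2 held the first motif at 2 overlapping places, from base -130 to -121 and from -124 to -115 before the start, and the second motif from -136 to -128, overlapping the first. Ifit2 held the second motif from -241 to -233 before its first start. Neither motif was written in the windows of Ddx58, Ifih1, Tbk1, Ifi35 and Ifitm1, or before the second start of Ifit2. Of the first Ifit2 window, only 106 bases lie before the annotated gene, and the second window begins after the start of that gene. The search of Ifit2 therefore says little about the sequence upstream of the annotated gene. The sequences of the 2 genes of small p, of Ifih1, which is compared with Ddx58 below, and of Bst2 follow from 5′ to 3′ on the strand of the gene, with motif matches in capitals. That of Ifit2 stops where the annotated gene begins.
Ddx58, chr4:40239826-40240075, minus strand: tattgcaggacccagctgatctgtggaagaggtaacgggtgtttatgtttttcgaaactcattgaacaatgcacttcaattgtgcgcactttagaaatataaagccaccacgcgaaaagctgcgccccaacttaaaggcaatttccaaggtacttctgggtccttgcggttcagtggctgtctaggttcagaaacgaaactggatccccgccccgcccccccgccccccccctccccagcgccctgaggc
Ifih1, chr2:62646256-62646505, minus strand: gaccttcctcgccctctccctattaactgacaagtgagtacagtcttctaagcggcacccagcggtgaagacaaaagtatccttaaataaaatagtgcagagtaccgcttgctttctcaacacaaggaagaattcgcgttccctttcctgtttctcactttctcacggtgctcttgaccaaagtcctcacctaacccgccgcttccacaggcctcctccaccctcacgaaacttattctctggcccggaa
Ifit2, chr19:34550444-34550549, plus strand: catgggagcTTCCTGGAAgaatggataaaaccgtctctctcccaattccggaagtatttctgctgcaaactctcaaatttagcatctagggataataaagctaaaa
Bst2, chr8:71537473-71537722, minus strand: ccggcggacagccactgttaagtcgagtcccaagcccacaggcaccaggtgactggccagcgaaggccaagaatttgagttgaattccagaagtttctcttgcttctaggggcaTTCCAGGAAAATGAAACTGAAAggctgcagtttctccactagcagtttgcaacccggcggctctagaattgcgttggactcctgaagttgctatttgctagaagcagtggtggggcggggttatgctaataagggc

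Ddx58, the RNA helicase that binds short RNA with triphosphate ends, had 668, 947 and 1129 normalized counts as the lowest, median and highest value of the BDS samples, against 989, 1130 and 1308 in control samples. All 6 BDS samples lay below the control mean and 3 lay below the lowest control. The group means were 939 ± 167 in BDS and 1139 ± 108 in controls (SD, n = 6 each), a log2 fold change of -0.28 ± 0.12 (SE; 95% interval -0.53 to -0.02; edgeR adjusted p = 0.38, unadjusted p = 0.037). The 3 BDS samples below every control were BDS 55, BDS 21 and BDS 25, at 668, 866 and 902. The others, BDS 7, BDS 43 and BDS 35, were at 992, 1081 and 1129, inside the range of the controls. Without the first 3 the log2 fold change was -0.09 (edgeR unadjusted p = 0.36). Leaving out the 3 lowest BDS values raises the BDS mean in any case, and 3 BDS samples then remain against 6 controls. In the sequence above, the Ddx58 window carries neither motif.

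Ifih1, the helicase that binds long double-stranded RNA, had 329, 402 and 507 normalized counts as lowest, median and highest in BDS, against 370, 496 and 590 in controls. The groups overlapped, with 2 BDS samples below the lowest control and 5 below the control mean. Means were 402 ± 66 in BDS and 488 ± 83 in controls (SD, n = 6 each), a log2 fold change of -0.28 ± 0.14 (SE; 95% interval -0.57 to 0.01; edgeR adjusted p = 0.38, unadjusted p = 0.060). BDS 21, BDS 55 and BDS 25 again held the lowest BDS values, at 329, 340 and 384. Without them the log2 fold change was -0.11.

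The fold changes of the 2 RNA helicases were alike. The log2 ratio of Ddx58 to Ifih1 counts was 1.22 ± 0.20 in BDS and 1.24 ± 0.23 in controls (SD, n = 6 each), so the mean of the ratio moved by less than its spread within a group. Single samples of both groups departed from it. On the log2 scale BDS 55 was 0.76 below the control mean in Ddx58 and 0.50 below in Ifih1. BDS 7 was 0.19 below it in Ddx58 and 0.07 above in Ifih1. Control 9 was 0.001 above it in Ddx58 and 0.38 below in Ifih1.

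Tbk1, the kinase to which both the RNA and the DNA routes lead, had 1358, 1718 and 2227 normalized counts as lowest, median and highest in BDS, against 1509, 1892 and 2057 in controls. BDS values lay on both sides of the control range, with BDS 25 below every control and BDS 7 above every control. Means were 1755 ± 303 in BDS and 1862 ± 205 in controls (SD, n = 6 each), and the log2 fold change was -0.08 ± 0.12 (SE; 95% interval -0.34 to 0.17; edgeR adjusted p = 0.72). The sign turned with the samples and the scaling, to 0.09 without BDS 21, BDS 25 and BDS 55 and to 0.01 with TMM scaling, which takes the size factors from all tested genes.

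Tmem173, listed in RefSeq as Sting1 and matched through its accession, was near the limit of detection. It lay above the limit in 2 BDS and 3 control samples. Raw counts were 12 to 24 in BDS and 12 to 30 in controls, with means of 18.7 in BDS and 19.0 in controls. After scaling, the lowest, median and highest values were 14.01, 17.6 and 37.8 normalized counts in BDS, against 8.77, 16.1 and 27.4 in controls. The log2 fold change was 0.33 ± 0.30 (SE; 95% interval -0.30 to 0.96; edgeR adjusted p = 0.61), and it turned to -0.10 without BDS 21, BDS 25 and BDS 55. The negative-control probes, which carry no transcript, were at 11.8 ± 3.3 in BDS and 8.60 ± 1.39 in controls after scaling (SD, n = 6 each). The two-sided exact permutation p of this measure was 0.061, and 0.11 adjusted over 7 measures of library quality. The raw means of these probes were 10.1 in BDS and 9.63 in controls. Their part in the Tmem173 value was not tested.

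Among the induced genes, Ifit2, whose tetratricopeptide-repeat protein limits viral translation, had the most negative log2 fold change of the 8 genes. Its lowest, median and highest values were 35.5, 47.1 and 64.8 normalized counts in BDS, against 45.3, 69.9 and 105 in controls. All 6 BDS samples lay below the control mean, and BDS 25, BDS 55 and BDS 21, at 35.5, 41.0 and 44.4, lay below the lowest control. Means were 48.6 ± 10.7 in BDS and 70.8 ± 22.9 in controls (SD, n = 6 each), a fold of 0.69 and a log2 fold change of -0.53 ± 0.22 (SE; 95% interval -1.002 to -0.05; edgeR adjusted p = 0.36, unadjusted p = 0.031). The coefficient of variation was 21.98% in BDS and 32.4% in controls, of which control 27 was the highest. Without control 27 the log2 fold change was -0.38, and without BDS 21, BDS 25 and BDS 55 it was -0.32. Neither had an unadjusted p under 0.05 (0.095 without control 27, 0.27 without the 3 BDS samples).

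Bst2, or tetherin, holds budding virus particles at the cell surface. Of the 7 members searched, it is the one with both interferon motifs in its upstream window. It had 125, 168 and 202 normalized counts as lowest, median and highest in BDS, against 157, 179 and 232 in controls. BDS 43 and BDS 35 lay below every control, and BDS 21 lay above the control mean of 182. The log2 fold change was -0.18 ± 0.14 (SE; 95% interval -0.47 to 0.12; edgeR adjusted p = 0.56). Here BDS 21, BDS 25 and BDS 55 were not the lowest, and without them the log2 fold change was -0.33 (unadjusted p = 0.068).

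Mx1 encodes a dynamin-like GTPase that blocks influenza virus. Most laboratory mouse strains, BALB/c included, carry a defective allele of it, so its transcript does not stand for a working protein. It had 80.8, 110 and 133 normalized counts as lowest, median and highest in BDS, against 77.6, 106 and 125 in controls. The log2 fold change was 0.07 ± 0.16 (SE; 95% interval -0.28 to 0.41; edgeR adjusted p = 0.83). Within BDS, BDS 55, BDS 25 and BDS 21 were the highest, at 122, 123 and 133, and BDS 7, BDS 43 and BDS 35 were at 80.8, 88.0 and 99.1. Without the first 3 the log2 fold change turned to -0.19.

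Ifi35, an interferon-induced leucine zipper protein, varied least of the 8 tested members between samples of a group. It had 537, 552 and 698 normalized counts as lowest, median and highest in BDS, against 517, 552 and 641 in controls. BDS 25 alone lay above every control. The coefficient of variation was 10.6% in BDS and 8.12% in controls, and the log2 fold change was 0.04 ± 0.09 (SE; 95% interval -0.15 to 0.24; edgeR adjusted p = 0.81). The sign turned to -0.02 without BDS 25.

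Ifi204 and Ifitm1 gave no level that could be compared. Ifi204, a mouse sensor of DNA from a family of near-identical genes whose probes may cross-hybridise, had raw counts of 5 to 12 in BDS and 5 to 24 in controls. It was above the limit only in control 44. Ifitm1, a membrane protein that limits viral entry and also belongs to a family of close copies, had raw counts of 6 to 14 in BDS and 4 to 12 in controls, above the limit in 0 samples. Its raw means were 8.67 in both groups. After scaling they were 10.8 ± 6.6 in BDS and 7.56 ± 2.77 in controls (SD, n = 6), beside the 11.8 in BDS and 8.60 in controls of the negative-control probes.

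**Figure D2:**
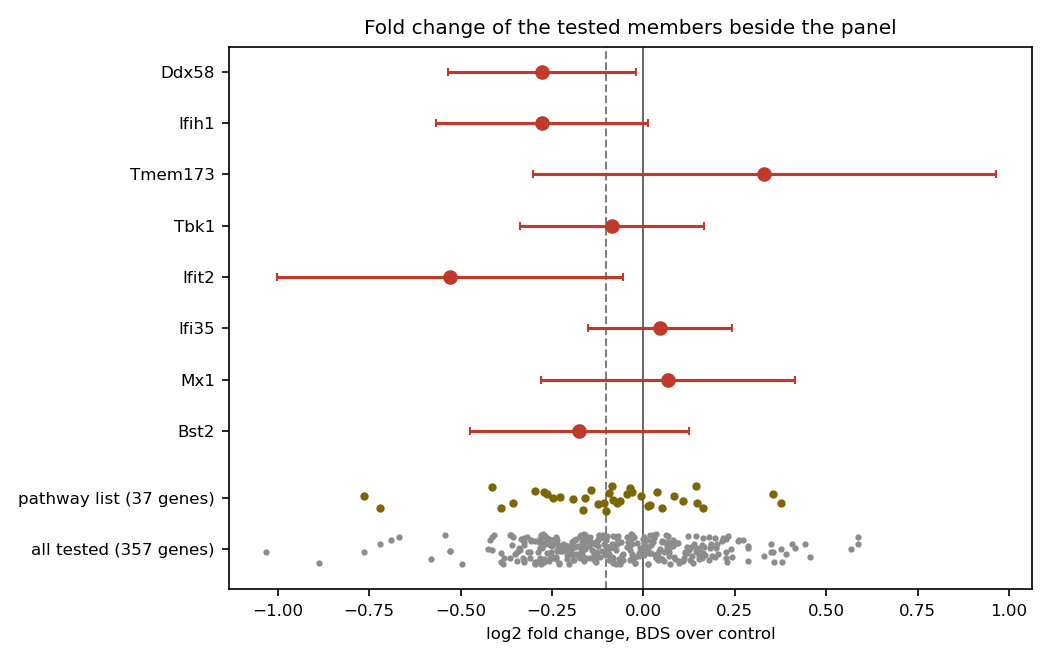
Log2 fold change, BDS over control, of the 8 tested members with 95% intervals (edgeR), above single points for the 37 tested genes of the wider pathway list and the 357 tested genes of the panel; the dashed line is the panel median of -0.10. The intervals of Ddx58 and Ifit2 lie below 0, and those of the other 6 genes cross it.

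The members did not share a pattern across the BDS samples. Ddx58, Ifih1, Tbk1 and Ifit2 each had their 3 lowest BDS values in BDS 21, BDS 25 and BDS 55, and Mx1 had its 3 highest there. Without these 3 samples the log2 fold changes of the 8 genes ran from -0.33 for Bst2 to 0.09 for Tbk1, and 0 of the 8 had an unadjusted p under 0.05 (edgeR; smallest adjusted p 0.90), beside 5.6% of the panel. For genes with their lowest or highest BDS values in these 3 samples, leaving them out shifts the fold change in any case. Only 3 BDS samples then remain against 6 controls. The part of RNA amount or quality in these 3 samples was not tested. In control samples the members also moved: control 27 was above the control mean in 7 of the 8 genes and control 9 below it in 6.

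**Figure D3:**
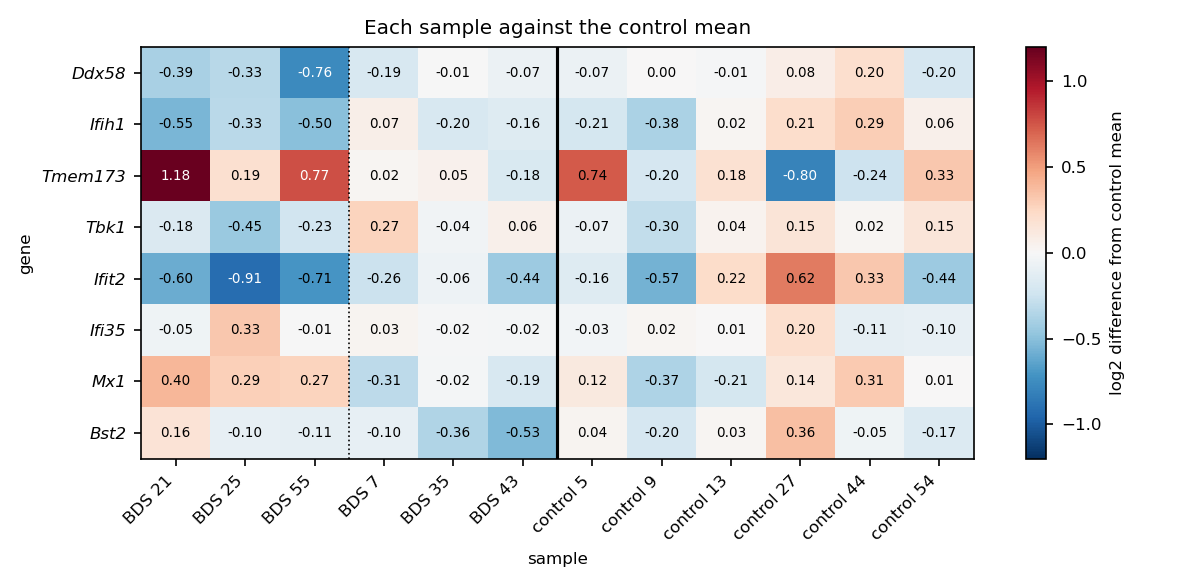
Log2 difference of each sample (columns) from the control mean for the 8 tested genes (rows), on normalized counts plus 1; the solid line parts BDS from control and the dotted line sets off BDS 21, BDS 25 and BDS 55. In those 3 samples Ifit2 is 0.60 to 0.91 below the control mean, while Mx1 is 0.27 to 0.40 above it.

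As a further description of the members, each was set beside the tested genes whose count stayed most nearly proportional to its own. The measure was the SD of the log2 ratio over the 12 samples, where a small value means a nearly constant ratio. For Tbk1 the 2 nearest were Irak4 (SD 0.07) and Irak1 (0.11), for Ifih1 the first was Irak1 (0.08), and for Ddx58 they were Nfkb1 (0.10) and Notch1 (0.10). The median SD over all tested genes was 0.30 for Tbk1, 0.34 for Ifih1 and 0.37 for Ddx58. For Ifit2 the nearest were Tnfaip3 and Ifih1, both at 0.29, so no tested gene stayed close to Ifit2. The same held for Tmem173, near the limit of detection, whose smallest SD was 0.35. The nearest to Bst2 was C1qa (0.15), to Ifi35 Tgfbi (0.13) and to Mx1 Tnfrsf17 (0.14). Among the members themselves the most constant ratio was that of Ifih1 to Tbk1 (SD 0.18). All ratios share the scaling of the sample, and genes of high count have less counting noise.

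The wider pathway was read from a list of 73 genes, of which 42 were found in the table and 37 were tested. At an unadjusted p under 0.05 there were 5, all lower in BDS, which is 13.5% of the list beside 12.3% of the panel, and 0 passed the adjusted threshold (edgeR). The median log2 fold change of the list was -0.09, beside -0.10 for the panel, with 26 genes below 0 and 11 above. With TMM scaling the median of the list was 0.01, beside -0.01 for the panel. Of the sensors and adaptors 3 of 8 were among the 5 (37.5%, beside 12.3% of the panel), and with 8 genes each carries a large part of this share. Of these 8, 5 were below 0 and 3 above. Their median was -0.25, beside -0.10 for the panel, and -0.15 with TMM scaling, beside -0.01. Tlr9, the endosomal sensor of unmethylated DNA, had a median of 3930 normalized counts in BDS and 5251 in controls (adjusted p = 0.17). Tlr3, the endosomal sensor of double-stranded RNA, had a median of 3624 in BDS and 4723 in controls (edgeR adjusted p = 0.25). Traf6, a ubiquitin ligase used by these receptors, had a median of 1269 in BDS and 1492 in controls (edgeR adjusted p = 0.38).

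The receptors and transducers gave the remaining 2 of these 5 genes, out of 11 tested (18.2%, beside 12.3% of the panel). Ifnar1, a chain of the type I interferon receptor, had 2527, 3158 and 3567 normalized counts as lowest, median and highest in BDS, against 3410, 3562 and 3739 in controls, with overlapping groups. Its log2 fold change was -0.19 ± 0.09 (SE; edgeR adjusted p = 0.38). All 6 interferon regulatory factors tested had log2 fold changes below 0, from -0.36 to -0.01, beside 66.1% of the panel. Of these 6, 2 lay below the panel median of -0.10 and 0 had an unadjusted p under 0.05. With TMM scaling the median of the 6 was 0.01, beside -0.01 for the panel. Of the 11 further induced genes tested, 6 were below 0 and 5 above, with a median of -0.04 and 0 at an unadjusted p under 0.05. Of the 4 interferon ligand genes in the table, 1 passed the filter on low counts, Ifna2, at 20.3 ± 5.9 normalized counts in BDS and 17.7 ± 4.9 in controls (SD, n = 6), near the limit.

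The balance of signs depends on the scaling, which sets the level that counts as no difference. With TMM in place of the housekeeping genes the panel median was -0.01 and that of the members -0.04, with 4 of the 8 below 0 beside 52.1% of the panel. Ddx58 then had a log2 fold change of -0.18 and Ifit2 of -0.43, and 0 of the 8 had an unadjusted p under 0.05, beside 8.96% of the panel. Ifih1 was at -0.18 and Bst2 at -0.08, while Ifi35, Mx1 and Tmem173 were at 0.14, 0.17 and 0.42.

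**Figure D4:**
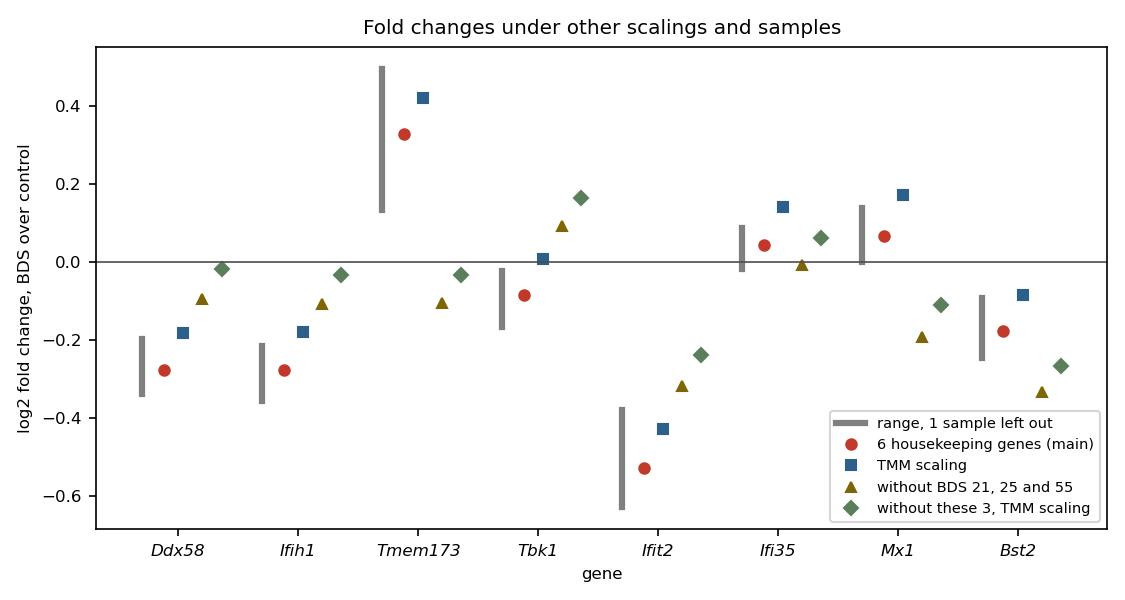
Log2 fold change, BDS over control, of the 8 tested members with the 6 housekeeping genes (circles), with TMM scaling (squares), without BDS 21, 25 and 55 (triangles) and without these with TMM scaling (diamonds); grey bars span the values with 1 sample left out. Ddx58, Ifih1, Ifit2 and Bst2 stay below 0 in all of them, while Tbk1, Mx1, Tmem173 and Ifi35 lie on both sides of 0. Ifit2 runs from -0.63 to -0.24, Ddx58 from -0.34 to -0.02, Ifih1 from -0.35 to -0.03 and Bst2 from -0.33 to -0.08.

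The authors' deposited table lists the same direction for each of the 8 tested genes. The authors' deposited table gives Ddx58 a fold of 0.84 with an unadjusted p of 0.0533, Ifih1 0.83 with 0.0885 and Ifit2 0.70 with 0.0663. For Bst2 the authors' deposited table has a fold of 0.90 (p = 0.2392) and for Tbk1 0.95 (p = 0.5775), and for Ifi35, Mx1 and Tmem173 folds of 1.04, 1.07 and 1.3. The share of samples above background in the authors' deposited table is 100% for the 7 genes found above the limit in all samples here, 50% for Tmem173 and 8% for Ifi204 and Ifitm1. None of the 10 deposited p-values in the authors' deposited table is under 0.05.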

How the data were processed

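The samples were 6 BDS and 6 control libraries of sorted hippocampal microglia, read on a NanoString nCounter panel. The raw table deposited by the authors holds barcode counts per probe, not normalized, for 545 endogenous genes, 14 housekeeping probes, 8 negative and 6 positive controls. The second deposited table holds values that the authors had scaled by housekeeping genes and positive controls, per the design text, and that are whole numbers, so they are treated as scores. Per the file headers, the authors also deposited the fold (a ratio of BDS to control), a p-value with no adjustment, and for each gene the percent of samples above background. No counting software was named in the labels.

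The size factor of a sample was its geometric mean of 6 housekeeping genes (Sdha, Tbp, Alas1, Gapdh, Oaz1 and Polr1b), relative to the geometric mean over samples. A gene was tested where at least 40% of samples (5 of 12) exceeded their own limit, set 2 SD over the mean of the negative controls, which kept 357 genes. BDS was compared with control in edgeR 4.0.16 (quasi-likelihood test, two-sided, R 4.3.3, no covariates), with Benjamini-Hochberg adjustment over the 357 genes and a threshold of 0.05. SE and 95% intervals come from the F statistic. Alternatives used DESeq2 1.42.0 and limma 3.58.1, other scalings, filters and pseudocounts (1 and 10), and samples left out. Counts of different genes are not compared as levels, since probes differ in efficiency.

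The members, the pathway list and the markers were chosen with earlier results of these data known. All members were named, and other pathway genes at an unadjusted p under 0.05 or by the rule on constant ratios (Irak1). Ifna2 lies outside these rules and was named after its values were seen, as were the markers given with a fold change. Some genes that the rules name are not reported here. The genes of most constant ratio were the 2 of smallest SD for each tested member. Of these the text gives the first or both, and for Tmem173 the smallest SD only. Of the 10 members, 9 were matched to RefSeq by accession and Mx1 by symbol.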

Additional observations from a re-analysis of the deposited data

Results flagged for a closer look

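In 20 groups of 6 samples (10 genes, 2 conditions), 1 sample stood far from the other 5 of its group: Ifi35 in BDS 25, at 698.3 normalized counts, where the gap to the next sample was 0.80 of the range of the BDS group. By chance about 1 group in 20 would hold such a sample.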

How the results depend on the processing

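Of 199 fold changes of members under alternatives, 11 turned in sign, and 0 of the 195 with an adjusted p passed the threshold; DESeq2 gave none for the other 4 (Ifit2, Tmem173, Mx1 and Bst2). Ddx58, Ifih1, Ifit2 and Bst2 kept their sign in all 25 alternatives of each, with adjusted p-values, where given, from 0.11 to 0.98. Without BDS 21, 25 and 55 the log2 fold changes that turned were those of Tmem173 (-0.10), Tbk1 (0.092), Ifi35 (-0.0066) and Mx1 (-0.19). With TMM scaling as well, an alternative chosen after seeing the data, they were Tmem173 (-0.032), Tbk1 (0.16) and Mx1 (-0.11). Tbk1 also turned with TMM scaling (0.0073) and DESeq2 size factors (0.0023). With 1 sample left out, the log2 fold change of Ifi35 ran from -0.017 to 0.089 and that of Mx1 from -0.00038 to 0.14, which turned without BDS 25 for Ifi35 and without control 9 for Mx1.

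Members at an unadjusted p under 0.05 numbered 2. They numbered 0 with TMM scaling, 0 with DESeq2 size factors and 0 without BDS 21, 25 and 55 under either scaling. With 5 or all 14 housekeeping genes they numbered 1, beside 35 and 40 of the 357 panel genes. With 1 sample left out they numbered 0 to 3. Pathway genes numbered 5, and 3 with 5 or all 14 housekeeping genes, 1 without the 3 BDS samples with TMM scaling, and 3 to 8 with 1 sample left out. Panel genes at an unadjusted p under 0.05 numbered 44, and 32 with TMM scaling and 29 with DESeq2 size factors. They numbered 20 without the 3 BDS samples, 9 without them with TMM scaling, and 26 to 96 with 1 sample left out. Panel genes past the adjusted threshold numbered 0, and 6 with DESeq2 and 0 to 4 with 1 sample left out, 4 being without BDS 7. The cause was not tested. Samples left out were tested on the 357 genes of the full comparison. No paired analysis was possible because the BDS and control samples share no replicate numbers. Counts near the negative controls limit what can be said of Tmem173, Ifi204 and Ifitm1.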
